A study of Homo sapiens with 7 samples.

Results

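UBE2DNL is listed in the RefSeq gene table as a transcribed pseudogene of chromosome X that resembles the UBE2D ubiquitin-conjugating enzymes. It was examined here together with the UBE2D and UBE2E genes that the array carries by name, UBE2D1, UBE2D2, UBE2D3, UBE2D4, UBE2E1, UBE2E2 and UBE2E3. These 8 genes, of the 34809 gene names on the array, were found by the gene name that the array gives to its non-control probes, and they were represented by 10 probes on 15 spots. UBE2DNL was selected on its signal in these same arrays, high in HOTAIR cells and low in control cells, so its difference is given below as a description without a test. The measurements come from ACHN, a human renal cell carcinoma (RCC) line. ACHN-EV cells had been transduced with the empty retroviral vector pBabe-hygro and ACHN-HOTAIR cells with the same vector carrying the long noncoding RNA HOTAIR, and both were selected with hygromycin. Each sample had a single-color Agilent array of its own, 4 for ACHN-EV (numbered EV 1 to EV 4) and 3 for ACHN-HOTAIR (numbered HOTAIR 1 to HOTAIR 3). The labels do not say whether samples of a group came from separate transductions or cultures, so the p-values measure only the spread between these samples, which may be technical. The groups also occupied separate rows of the slide, and an effect of the row cannot be told apart from one of the group.

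Ubiquitin is attached to proteins by a chain of enzymes. An E1 enzyme activates ubiquitin, an E2 (ubiquitin-conjugating) enzyme carries it on a cysteine, and an E3 ligase brings the loaded E2 to the substrate. The UBE2D enzymes are broadly used E2s that work with many RING and HECT ligases, and UBE2D2 and UBE2D3 are among the E2s that cells use most widely. The UBE2E enzymes share the same catalytic core and carry an additional N-terminal extension. The genes of both families have processed copies elsewhere in the genome, and a short probe can match a copy as well as its parent gene.

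The probes are 60 bases long. The UBE2DNL probe and a UBE2E3 probe are shown because they cover the same stretch of the catalytic core. Aligned codon by codon, with gaps of 2 codons, they shared 12 of 15 encoded residues and 29 of 45 bases (64.4%), and the capitals mark the identical bases.
UBE2DNL A_23_P367071: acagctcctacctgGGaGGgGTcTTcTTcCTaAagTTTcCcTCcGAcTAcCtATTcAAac
UBE2E3 A_24_P148450: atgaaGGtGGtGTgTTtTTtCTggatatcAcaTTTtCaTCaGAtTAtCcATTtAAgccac
The UBE2D1 probe and a UBE2D3 probe overlap in another coding stretch. They are shown because they are the closest pair among the probes, with 9 of 9 residues and 23 of 27 bases (85.2%) identical, again in capitals.
UBE2D1 A_24_P13032: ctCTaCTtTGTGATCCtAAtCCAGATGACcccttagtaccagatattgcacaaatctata
UBE2D3 A_23_P58293: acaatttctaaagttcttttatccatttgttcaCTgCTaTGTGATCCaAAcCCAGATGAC
The array annotation, on hg19, places the UBE2DNL probe on the plus strand at chrX:84189670-84189729 and the UBE2D1 probe on the plus strand at chr10:60127701-60127760. The longest run of bases that the UBE2DNL probe shared with any other of the 42405 probes was 13, and none of the probes sharing it was a UBE2D or UBE2E probe. That search covered probe sequences only, and whether the UBE2DNL probe also binds UBE2D or UBE2E transcripts was not tested.

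The arrays were alike in brightness. The intensity at the 75th percentile of the non-control spots was 523 to 649 on the EV arrays and 552 to 640 on the HOTAIR arrays, and 48.7% to 52.1% of probes were well above background. No spot was saturated. EV 2 and HOTAIR 3 stood apart from the other arrays of their groups on the first principal component. All 9 renal epithelial and RCC marker genes examined were well above background on every array, while of 9 markers of other cell types CD68 and ACTA2 were above it on every array and CD3E, VWF, COL1A1 and ALB, among others, on none. The scaled signal used below is the log2 processed intensity minus the array's own 75th percentile on the log2 scale. The HOTAIR probe, which tests the labels, had scaled signals of -6.69 ± 0.39 (SD, n = 4) in EV cells, where no array was well above background. In HOTAIR cells it had -2.98 ± 0.35 (SD, n = 3), and all 3 arrays were well above background.

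UBE2DNL was above background in the HOTAIR cells alone. Its single spot gave scaled signals of -7.59, -7.28, -7.36 and -7.18 on EV 1 to EV 4 and of -4.61, -4.70 and -4.28 on HOTAIR 1 to HOTAIR 3. The lowest HOTAIR array lay above the highest EV array. The means were -7.35 ± 0.17 (SD, n = 4) and -4.53 ± 0.22 (SD, n = 3), a measured log2 difference of 2.82. This size depends on values that were not measured. On all 4 EV arrays the spot was not well above background, and its processed intensity of 3.38 to 3.61 was a substitute that the scanner software sets for spots it cannot separate from background. On the processed signal the HOTAIR mean lay 1.64-fold above a floor set for the EV arrays. This bound makes no allowance for the difference in the surrounding spots given below. With the normexp correction of the raw signal, an alternative that models the background, the measured log2 difference was 0.46 (1.38-fold) and the same bound 1.30-fold, so the size depends on how the background is treated. For each EV array the floor was the dimmest single spot well above background, or the UBE2DNL spot itself where that was higher. The second case held, for example, on EV 1 with the normexp correction. The bound sets the HOTAIR mean against the mean of these floors. On the processed signal it became 3.25-fold when the dimmest probe average was used in place of the dimmest spot.

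The unprocessed values are those of the same spot, so the selection fixed their direction and they add no separate support. The order of the EV arrays among themselves differed from that of the processed values. Before background correction its mean intensity was 49.1, 47.5, 50.02 and 49.1 on EV 1 to EV 4. It was 77.3, 73.1 and 79.9 on HOTAIR 1 to HOTAIR 3. The local background around it was nearly level, 25.0 to 26.0 on the EV arrays and 26.0 to 28.0 on the HOTAIR arrays. The software subtracts its own estimate of the background at the spot, which is larger than this local background, and the background-subtracted signal it gives was 2.90, -1.97, 1.72 and -1.50 units on EV 1 to EV 4 and 26.0, 20.5 and 27.8 units on the HOTAIR arrays. For scale, the dimmest spot called well above background held a processed intensity of 13.6 to 15.9 on the 7 arrays. UBE2DNL was 1 of 33 probes that were well above background on every HOTAIR array and on no EV array, which is 0.0778% of the 42405 probes. The reverse held for 7 probes (0.0165%).

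**Figure D1:**
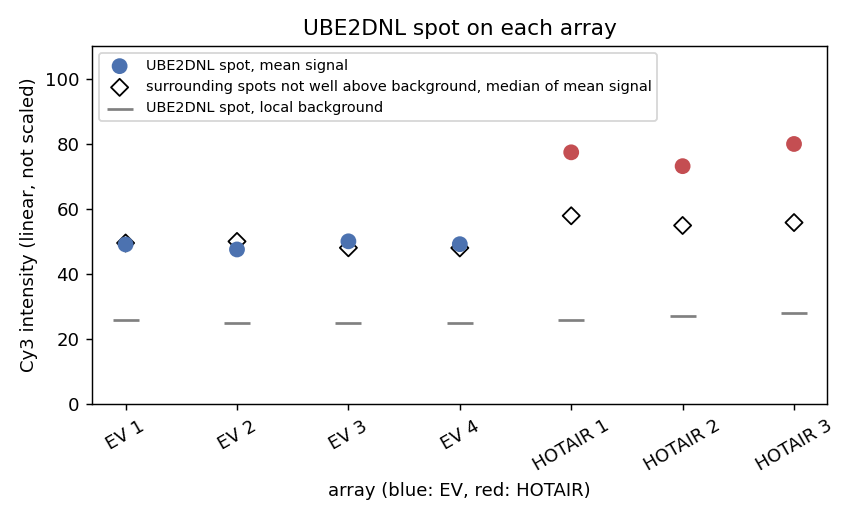
Unscaled Cy3 intensity (y axis) on each of the 7 arrays (x axis). Filled points are the mean signal of the UBE2DNL spot (blue for EV, red for HOTAIR), open diamonds the median mean signal of the surrounding spots never called well above background, and grey bars the local background of the UBE2DNL spot. The red points lie at 73.1 to 79.9 and the blue points at 47.5 to 50.02.

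The spots around UBE2DNL on the slide also leaned towards the HOTAIR arrays. The spot lies in row 2 near the edge of the array, and 51 non-control spots lay within 6 rows and 3 columns of it. Their median log2 difference between HOTAIR and EV arrays was 0.18. A difference above 1 was found in 6 of them (11.8%), against 2.00% of all non-control spots. In none of them was it below -1, against 0.439% of all non-control spots, a share at which 51 spots can hold none. Among the surrounding spots, 18 were never called well above background. Their median mean intensity was 48.0 to 49.99 on the EV arrays and 54.9 to 57.9 on the HOTAIR arrays, whereas over the whole array such spots had medians of 53.7 to 55.0 and 53.7 to 55.1. None of the 51 surrounding spots was, like UBE2DNL, well above background on every HOTAIR array and on no EV array. That pattern held for 0.0778% of the 42405 probes. At that share 51 spots can hold none, so no contrast is drawn. The part of the difference in the surrounding spots in the UBE2DNL signal was not tested.

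**Figure D2:**
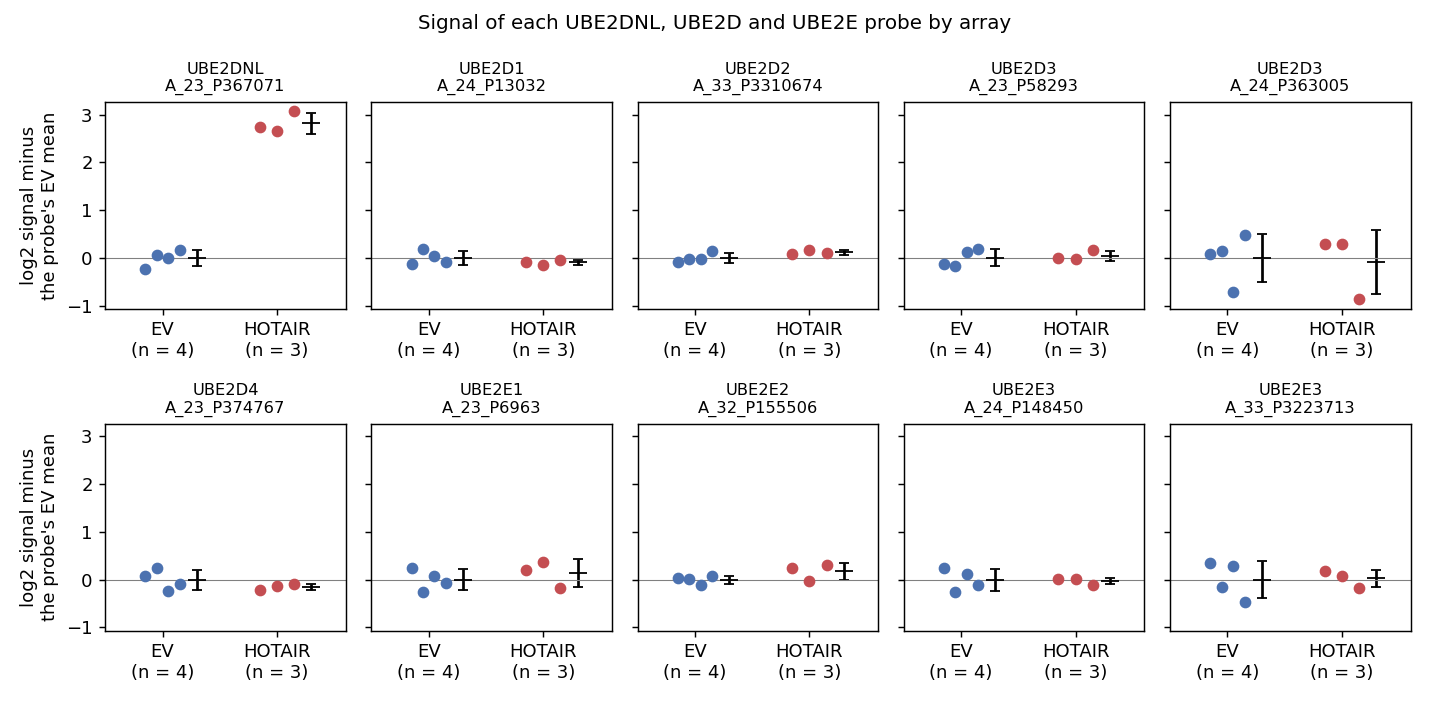
Scaled log2 signal minus the probe's own EV mean (y axis) for the 10 probes, by group (x axis, EV n = 4, HOTAIR n = 3). Points are arrays in the order of their numbers, and the bar and whiskers give the mean and SD. The groups do not overlap in the panel of UBE2DNL, which was selected for this difference, and they overlap in the others. In the UBE2D3 A_24_P363005 panel EV 3 and HOTAIR 3 lie below the other arrays.

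No UBE2D or UBE2E gene passed the test between HOTAIR and EV cells. All 9 probes of the 7 UBE2D and UBE2E genes were well above background on all 7 arrays, and 0 of them passed an adjusted p of 0.05 (limma, Benjamini-Hochberg over the 20419 probes tested). The same test called 34 probes (0.167%). Without adjustment, 0 of the 9 probes had a p under 0.05, the smallest being 0.186 for UBE2E2. Under the normexp correction, 1 of the 9 did, UBE2D4, with a difference of -0.31 (unadjusted p = 0.0484, limma adjusted p = 0.889). The groups overlapped for all 9 probes. They did not overlap for 1572 of the probes tested (7.7%), and at that share a set of 9 probes can hold none, so no contrast is drawn.

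Among the UBE2D genes, UBE2D1 encodes an E2 that is used with many RING ligases. Its probe had scaled signals of 0.0023, 0.33, 0.17 and 0.040 on EV 1 to EV 4 and of 0.056, -0.021 and 0.083 on HOTAIR 1 to HOTAIR 3, with EV 2 the highest. The log2 difference was -0.10 (95% interval -0.37 to 0.18, limma adjusted p = 0.993). The UBE2D2 probe, on the plus strand at chr5:139007208-139007267, had 2.45, 2.52, 2.53 and 2.69 on the EV arrays and 2.62, 2.71 and 2.66 on the HOTAIR arrays. All HOTAIR arrays exceeded EV 1, EV 2 and EV 3, and the range of EV 4 and the HOTAIR arrays overlapped. The difference was 0.11 (95% interval -0.13 to 0.35, adjusted p = 0.993). UBE2D4, a less studied member of the family with a probe on the plus strand at chr7:43992881-43992940, had 1.10, 1.26, 0.78 and 0.93 on the EV arrays and 0.80, 0.88 and 0.92 on the HOTAIR arrays. Its difference of -0.15 was the lowest of the 9 probes (95% interval -0.47 to 0.17, adjusted p = 0.993), and EV 3 lay below all HOTAIR arrays.

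The 2 UBE2D3 probes did not follow each other. The probe A_24_P363005, on the minus strand at chr4:103717791-103717850 and so on the chromosome where RefSeq lists UBE2D3, had scaled signals of 2.85, 2.93, 2.07 and 3.26 on EV 1 to EV 4 and of 3.07, 3.07 and 1.91 on HOTAIR 1 to HOTAIR 3. EV 3 and HOTAIR 3 were low, each by at least 0.78 below the next array. The other probe, A_23_P58293, placed on chromosome 3, had 1.88, 1.83, 2.12 and 2.19 and then 2.00, 1.98 and 2.16, and was not low on those arrays. The gap between the probes was 0.97 to 1.10 on the other 5 arrays, -0.052 on EV 3 and -0.25 on HOTAIR 3. A drop of this kind and size on both arrays was found for 13 of the 20419 probes tested, the UBE2D3 probe included. The group differences were -0.10 (95% interval -0.96 to 0.77) for the first probe and 0.042 (95% interval -0.26 to 0.34) for the second, with limma adjusted p-values of 0.993 for both. The first interval, the widest of the 9, runs from 1.94-fold lower to 1.70-fold higher.

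Of the UBE2E genes, UBE2E1, whose product carries the N-terminal extension typical of the family, was measured on the plus strand at chr3:23930634-23930693 and had scaled signals of -2.50, -3.01, -2.68 and -2.81 on EV 1 to EV 4 and -2.54, -2.37 and -2.94 on HOTAIR 1 to HOTAIR 3. EV 2 and HOTAIR 3 were the lowest arrays of their groups, and the difference was 0.13 (95% interval -0.28 to 0.55, limma adjusted p = 0.993). The UBE2E2 probe, on the plus strand at chr3:23631611-23631670, had -1.42, -1.44, -1.57 and -1.38 on the EV arrays and -1.20, -1.48 and -1.15 on the HOTAIR arrays. HOTAIR 1 and HOTAIR 3 lay above all EV arrays and HOTAIR 2 among them. Its difference of 0.18 was the highest of the 9 probes (95% interval -0.11 to 0.46, limma adjusted p = 0.971). The UBE2E3 probe shown above had 1.52, 1.00, 1.39 and 1.17 on the EV arrays and 1.28, 1.29 and 1.17 on the HOTAIR arrays. The other UBE2E3 probe had 1.34, 0.83, 1.27 and 0.51, and then 1.16, 1.06 and 0.83. In both UBE2E3 probes EV 1 was the highest and the HOTAIR arrays lay within the range of the EV arrays, with differences of -0.026 (95% interval -0.36 to 0.31) and 0.026 (95% interval -0.49 to 0.54).

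**Figure D3:**
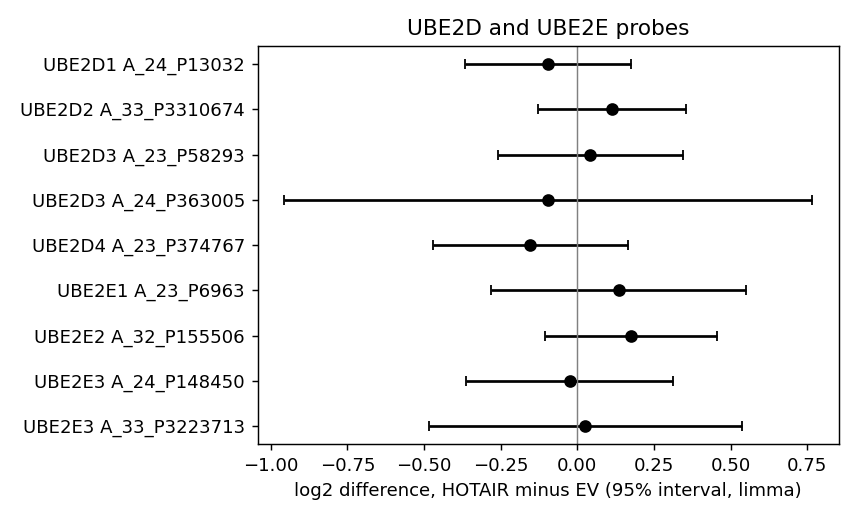
Log2 difference between HOTAIR and EV arrays (x axis) for the 9 UBE2D and UBE2E probes (y axis). Points are limma estimates and bars their 95% intervals. Every interval includes 0, and the estimates run from -0.15 (UBE2D4) to 0.18 (UBE2E2).

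Over the 9 probes the differences had a median of 0.026, with 5 above and 4 below 0, beside a median of 0.013 over all probes tested. For the 5 probes printed on a pair of spots, the median gap between the spots of one array was 0.044 to 0.22 on the log2 scale, and their group differences were at most 0.13 in size.

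The annotated positions of 3 of the 10 probes did not lie on the chromosome of the gene they are named for. The UBE2D3 probe A_23_P58293 is placed on the plus strand at chr3:37176442-37176501, between probes of LRRFIP2 and GOLGA4, and RefSeq (GRCh38.p14) lists the pseudogene UBE2D3P2 next to LRRFIP2 on chromosome 3. Both UBE2E3 probes are placed on chromosome X between GEMIN8 and GLRA2, at chrX:14262703-14262762 for the probe shown above and chrX:14262523-14262582 for the other. RefSeq lists UBE2E3 on chromosome 2 and the transcribed pseudogene UBE2E4P between GEMIN8 and GLRA2. By accession, all 3 probes are assigned to the parent transcripts, and which RNA each of them detected in these cells was not tested. The array also carries a probe named UBE2E4P, which is outside the set and was examined after its position was seen. Its annotation places it on the minus strand at chr2:181922424-181922483, on the chromosome of UBE2E3. Every array called it well above background, with -4.29, -2.85, -3.91 and -3.14 on the EV arrays and -4.21, -4.80 and -3.32 on the HOTAIR arrays, and its groups overlapped (difference -0.56, 95% interval -1.60 to 0.47, limma adjusted p = 0.990). A further probe on chromosome 2, described as UBE2E3 but listed under a transcript identifier, was never called well above background.

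The remaining steps of ubiquitin transfer were examined in 3 lists of genes, and 0 probes of any list passed the adjusted p of 0.05. The same test called only 0.167% of all probes tested, so these counts are not read as a trait of the lists. For 33 other E2 enzymes, 39 probes of 31 genes were tested, and their median log2 difference was 0.0008. The widest differences were 0.38 for UBE2L6, the E2 of the ubiquitin-like modifier ISG15 (95% interval -0.45 to 1.20, limma adjusted p = 0.993), and -0.23 for UBE2N, which builds K63-linked chains (adjusted p = 0.983). For the 8 E1 enzymes the 9 tested probes had a median of -0.12, and 8 of them were below 0. The probe A_24_P376229 of UBA2, a subunit of the SUMO-activating enzyme, had 1.57, 1.74, 1.64 and 1.55 on the EV arrays and 1.32, 1.23 and 1.45 on the HOTAIR arrays. Its groups did not overlap, as for 7.7% of all probes tested. Its unadjusted p was 0.0281 (limma), the lowest of the list, with an adjusted p of 0.753. Another UBA2 probe, A_33_P3383034, had a difference of -0.14 and overlapping groups (limma unadjusted p = 0.291, adjusted p = 0.993). The array annotation places it on chromosome 6 and A_24_P376229 on chromosome 19. Which RNA each of these UBA2 probes detected was not tested. UBA7, the activating enzyme of ISG15, had a difference of 0.32 (adjusted p = 0.939).

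For 33 E3 ligases and partners that work with UBE2D or UBE2E enzymes, 42 probes of 32 genes were tested, with a median of -0.056 and 14 probes above 0. The probe A_23_P106798 of SIAH1, a RING ligase, had -0.28 (95% interval -0.81 to 0.25, limma adjusted p = 0.992). Another SIAH1 probe, A_33_P3270509, had -0.25. The probe A_24_P925664 of MDM2, the ligase of p53, had -0.26 (95% interval -0.57 to 0.040, limma adjusted p = 0.921). Further MDM2 probes had -0.23 (A_33_P3361707) and -0.092 (A_23_P502750, 95% interval -1.06 to 0.88).

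**Figure D4:**
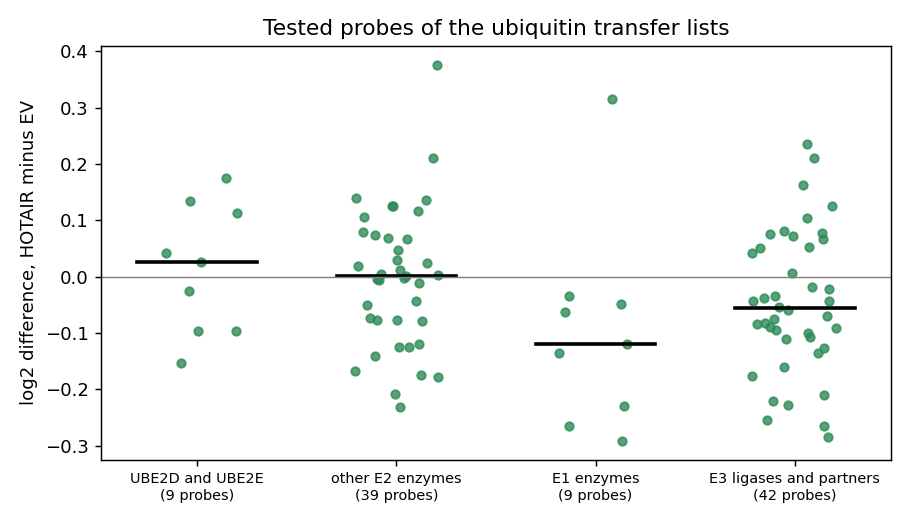
Log2 difference between HOTAIR and EV arrays (y axis) of each tested probe in the UBE2D and UBE2E families and in 3 lists of ubiquitin transfer genes (x axis). Points are probes and black bars medians. The 9 E1 probes have a median of -0.12 and the 42 probes of E3 ligases and partners a median of -0.056, and no point passed the adjusted p.

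No tested gene beside UBE2DNL on chromosome X passed the test between HOTAIR and EV cells, which called 0.167% of all probes tested. With so few calls over the array, the lack of one here is not read as a trait of the region. Within 2 Mb of the UBE2DNL probe on either side, 17 further probes with 12 gene names are annotated. Of these, 8 were never called well above background (probes of POU3F4, CYLC1, SATL1, ZNF711, POF1B and DACH2). Another POF1B probe was well above background on EV 2 and EV 4 and on none of the others, and was not tested. The 8 tested probes, of RPS6KA6, HDX, SET, APOOL, CHM and STIP1, had log2 differences from -0.33 to 0.13, and 0 passed the adjusted p of 0.05. The highest upper limit of their 95% intervals was 0.74, for STIP1 A_24_P327815. Apart from STIP1 it was 0.57, for CHM A_33_P3274397. The log2 bound for UBE2DNL was 0.71 on the processed signal and 0.38 with the normexp correction. Because the bound depends on how the background is treated, a contrast in size with UBE2DNL was not established. The probe of APOOL, the nearest tested gene at 153.0 kb, had -0.28, -0.58, -0.042 and -0.13 on the EV arrays and -0.26, -0.13 and -0.43 on the HOTAIR arrays. The difference was -0.013 (95% interval -0.38 to 0.35, limma adjusted p = 0.997). HDX, a homeobox gene on the other side, had the lowest value, with -2.65, -2.33, -2.63 and -2.61 on the EV arrays and -2.88, -2.87 and -2.92 on the HOTAIR arrays. Its groups did not overlap, as for 7.7% of all probes tested. The HDX difference was -0.33 (95% interval -0.61 to -0.062, limma adjusted p = 0.715). SET and STIP1 are listed by RefSeq on chromosomes 9 and 11, so their probes may not report on chromosome X.

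**Figure D5:**
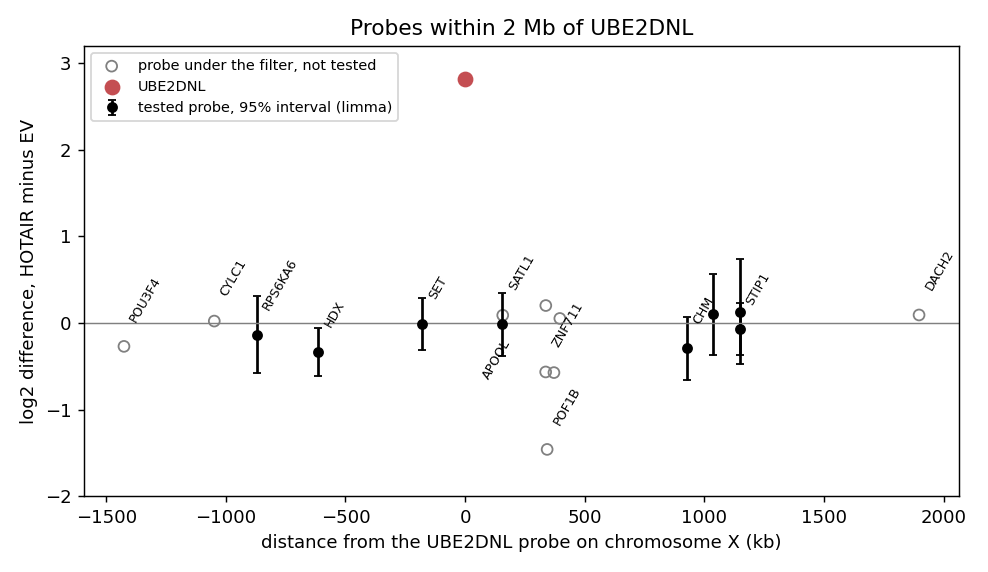
Log2 difference between HOTAIR and EV arrays (y axis) against distance from the UBE2DNL probe on chromosome X in kb (x axis). Filled black points are tested probes with 95% intervals (limma), open grey points probes under the filter on dim probes, and the red point UBE2DNL. The tested probes lie between -0.33 and 0.13 and UBE2DNL at 2.82, a value taken against EV signals that were not well above background.

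Among the other 32 probes that were well above background on every HOTAIR array and on no EV array, 5 were named for profiles like that of UBE2DNL, by the root mean square difference over the 7 arrays after subtraction of each probe's EV mean. They are CPVL, a serine carboxypeptidase-like gene on chromosome 7, the complement receptor gene CR2 on chromosome 1, the axonemal dynein gene DNAH10 on chromosome 12, the receptor tyrosine kinase gene KIT and the Wnt inhibitor gene SFRP1, with differences from 0.24 to 0.56. On the HOTAIR arrays, where they were measured, the scaled signal was -3.75 ± 0.21 (SD, n = 3) for CPVL, -3.76 ± 0.33 for CR2 and -4.90 ± 0.44 for DNAH10. None of the 5 was well above background on any EV array, so the EV means behind these distances are not measured levels, no order among the 5 is drawn, and the selection fixed their direction.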

How the data were processed

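Per the labels, the arrays were read with Agilent Feature Extraction 10.7.3.1. The authors deposited 1 file per array, with raw, background and processed intensity of each spot, and a table of processed intensity, within 0.5% of the array files and not scaled between arrays. Coordinates are those of the array annotation (hg19), and RefSeq tables (GRCh38.p14) were used for names, chromosomes and neighboring genes only. Outlier spots were left out, the log2 processed intensity was scaled by each array's 75th percentile, and spots of a probe were averaged. Probes that all arrays of 1 group or more called well above background (20419 of 42405) were tested with limma 3.58.1 (R 4.3.3, lmFit and eBayes, Benjamini-Hochberg) after the script had been tested on simulated data. Array number limits the precision. Probe sequences were translated and aligned with Biopython 1.88 (BLOSUM62, gap opening 12, extension 1). Named genes were all probes of the set, HOTAIR, the 2 list members with the widest differences, all genes within 2 Mb of UBE2DNL and the 5 nearest profiles, and some genes that this rule or the marker list names are not reported here. The members and lists were chosen with earlier results of these data known. Alternatives were normexp correction (offset 50), quantile normalization, the percentile over detected probes, no filter and a stricter filter, the deposited table, trend and robust moderation, the replicate number as a block, each array left out, the Mann-Whitney U test that the methods name, and, chosen after seeing the data, EV 2 and HOTAIR 3 left out together.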

Additional observations from a re-analysis of the deposited data

Results flagged for a closer look

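Among 43 probes named here, the EV group of 4 arrays was examined for a single array far from the others, by Dixon's test at 95%, which chance passes in about 1 group of 20. It singled out 2 probes, both on EV 2, the array that stood apart on the first principal component. For HDX, EV 2 was at -2.33, above the other EV arrays at -2.65 to -2.61. For UBE2L6, EV 2 was at -0.89, below the other EV arrays at 0.33 to 0.39. No UBE2DNL, UBE2D or UBE2E probe was singled out.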

How the results depend on the processing

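No UBE2D, UBE2E or list probe passed the adjusted p of 0.05 under any of the limma alternatives run. The same held for the 8 chromosome X probes tested above. The other chromosome X probes were not examined under the alternatives. The 9 UBE2D and UBE2E probes had a smallest adjusted p of 0.691 over 17 limma fits, and p-values of 0.229 to 1 by the exact two-sided Mann-Whitney U test, which 4 against 3 arrays cannot take below 0.0571. Under the normexp correction, which models the background of raw signals, the UBE2DNL difference was 0.46 in place of 2.82 and its bound 1.30-fold. It was 2.69 to 2.91 with an array left out. UBE2DNL was not in the fit with the stricter filter, for probes that every array called well above background. The 34 calls over all probes became 12 with normexp, 14 with no filter, 22 with the stricter filter and 20 with trend and robust moderation, and 9 (without EV 1) to 30 (without EV 2) with an array left out. They became 12 without EV 3, 11 without EV 4, 15 without HOTAIR 1, 13 without HOTAIR 2 and 21 without HOTAIR 3. With the replicate block they became 0 (1073 at an unadjusted p under 0.05). The deviations of same-numbered arrays from their group means had correlations of 0.39, -0.37 and -0.41. Over all pairs of an EV and a HOTAIR array, the highest correlation was 0.62, for EV 2 and HOTAIR 3. Whether the numbers pair samples cannot be told from these values, and the labels do not say.

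Differences near 0 changed sign, with no call in any case, and the cause was not tested. With normexp, the UBE2D3 probes had -0.064 (A_23_P58293) and 0.0068 (A_24_P363005). Under the replicate block, UBE2D3 A_24_P363005 had 0.066, UBE2E3 A_33_P3223713 -0.13, APOOL 0.028 and CHM A_33_P3274397 -0.015. In the deposited table, UBE2E3 A_24_P148450 had 0.021, SET 0.030 and APOOL 0.030. With the percentile over detected probes, SET and APOOL had 0.0086. Without EV 2 and HOTAIR 3, the UBE2D3 probes had -0.073 (A_23_P58293) and 0.34 (A_24_P363005), SET 0.064 and STIP1 A_32_P92783 0.071. With an array left out, UBE2D3 A_23_P58293 ranged from -0.016 to 0.10, UBE2D3 A_24_P363005 from -0.33 to 0.29, UBE2E3 A_24_P148450 from -0.11 to 0.059 and UBE2E3 A_33_P3223713 from -0.13 to 0.14. SET then ranged from -0.063 to 0.075, APOOL from -0.12 to 0.067, CHM A_33_P3274397 from -0.015 to 0.25, STIP1 A_32_P92783 from -0.18 to 0.025 and STIP1 A_24_P327815 from -0.031 to 0.28. For UBE2DNL, a signal close to background limits what the EV values can show.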
